A study of Papio anubis with 3 samples.

Results

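The regions described here are the peaks of 2 repressive histone marks that lie near the ends of baboon autosomes. A peak was taken where it ended at or below position 2000000, or where it began no more than 2 Mb before the last peak end of its chromosome in either list. This gave 614 of the 10709 peaks of the series, of which 97 of 709 carried H3K27me3 and 517 of 10000 carried H4K20me3. The window at low coordinates is called the start window and the other the far window, and the rest of each autosome is its interior. Start and far follow the numbering of the assembly and say nothing about the short or long arm. The 20 autosomes give 40 such windows, 80 Mb in all, against 2437 Mb of interior.

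The peaks came from chromatin immunoprecipitation sequencing of neural progenitor cells. These were taken from 1 adult Papio anubis, the olive baboon, in the subventricular zone, the germinal layer along the lateral ventricles. Cells were pulled out of the dissociated tissue with beads that carried antibodies to neural markers (Doublecortin, Nestin, GFAP and PSA-NCAM are among the examples given), so the preparation can hold stem cells, neuroblasts and other cells with these markers. After fixation in 1.1% formaldehyde, fragments of 200 to 500 bp were precipitated with an antibody to H3K27me3 in 1 library and to H4K20me3 in the other. Total H3 and total H4 precipitates served for normalization, at a stated depth above 200 M tags. The labels give no treatment, genotype, sex or age beyond adult, and name 1 animal. Each mark therefore has 1 library and no value below has a replicate error. No difference could be tested over samples, and the 95% intervals given are exact intervals for counting error that treat neighbouring peaks as independent.

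H3K27me3 is written by Polycomb repressive complex 2 and marks silenced developmental genes, which neural stem cells of the subventricular zone keep repressed as they progress towards neurons. H4K20me3 is written by the SUV420H enzymes, commonly downstream of H3K9me3, and is known from constitutive heterochromatin at pericentromeric and telomeric repeats and at families of repeated genes. The stretches next to primate telomeres are rich in duplicated sequence, so near-identical copies lie on several chromosome ends. No genome of the papAnu2 build was used here, so the peaks are given by position, without sequence or gene names, and the labelled cell type was not checked against marker genes.

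H3K27me3 peaks were denser near the ends than inside the autosomes. The 97 peaks made up 15.7% (13 to 18.9) of the 616 autosomal H3K27me3 peaks, on 3.18% of the autosomal span. Their density was 1.21 peaks per Mb against 0.213 in the interiors, a ratio of 5.69 (4.54 to 7.08). Most of this came from few places, as the plot of counts by autosome end shows. The start window of chromosome 9 alone held 52 peaks, or 53.6% of the 97, and without chromosome 9 the ratio was 2.79 (2.01 to 3.79). With peaks less than 50 kb apart joined and counted once, 24 regions lay at the ends and 288 inside, a ratio of 2.54 (1.60 to 3.85). Of the end peaks 3, each a region of its own, set the far end of their chromosomes and lie there by construction.

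H4K20me3 peaks were also denser near the ends. The lists of the marks differ in layout, so the size of the ratio is not ranked against that of H3K27me3. The 517 peaks made up 5.32% (4.88 to 5.78) of the 9718 autosomal H4K20me3 peaks. Their density was 6.46 per Mb against 3.78 in the interiors, a ratio of 1.71 (1.56 to 1.87). Of the 517 peaks, 17 set the far end of their chromosomes and lie there by construction. With peaks joined within 50 kb, 64 regions lay at the ends and 1895 inside, and the ratio fell to 1.03 (0.789 to 1.32). Counted as places and not as peaks, H4K20me3 was thus not denser at the ends beyond its interval. In bases covered, the ends carried 2420 bp of H4K20me3 peak per Mb against 1526 bp in the interiors, and 1170 bp of H3K27me3 peak per Mb against 170 bp.

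**Figure D1:**
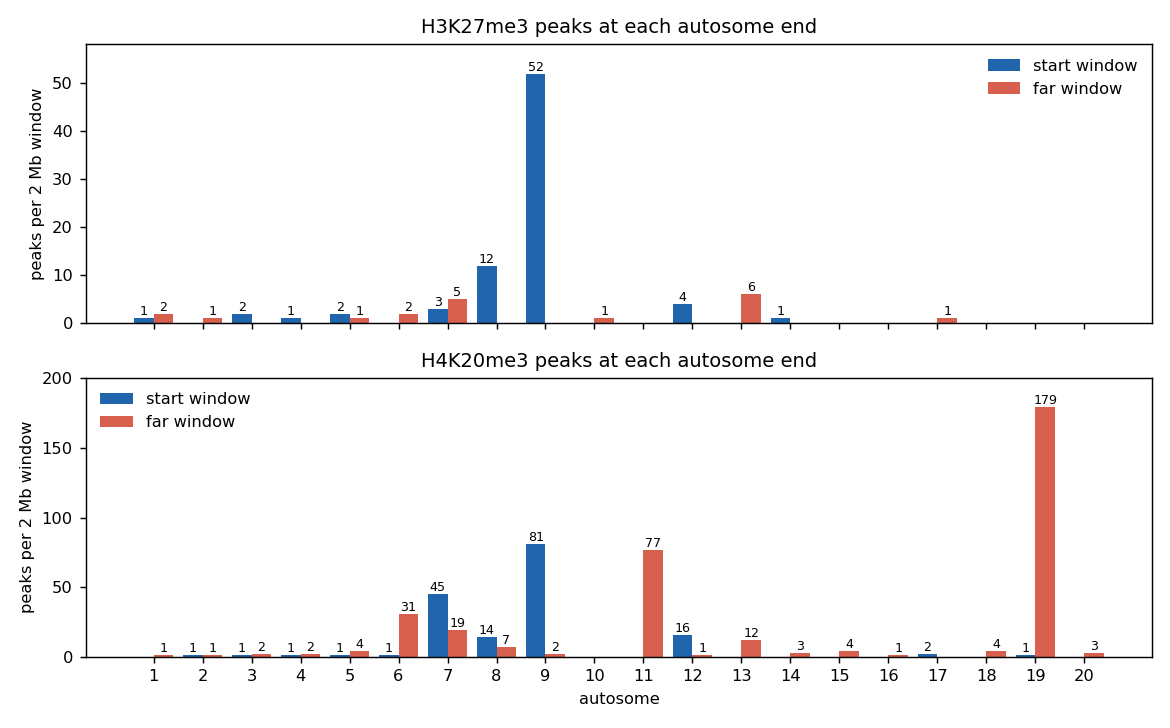
Number of peaks (vertical axis, linear, separate scale for each mark) in the start window and the far window of 2 Mb of each autosome (horizontal axis), with the count printed over each bar. A few ends hold most of the peaks: 52 H3K27me3 peaks at the start of chromosome 9, and 179 H4K20me3 peaks at the far end of chromosome 19.

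With all peaks counted, the 2 kinds of end differed in opposite ways for the marks. H3K27me3 had 78 peaks in start windows and 19 in far windows, a ratio of 4.11 (2.46 to 7.18). H4K20me3 had 164 in start windows and 353 in far windows, a ratio of 0.465 (0.384 to 0.561). Against the interiors, start windows were 9.16 times (7.12 to 11.6) as dense in H3K27me3 and 1.09 times (0.925 to 1.27) as dense in H4K20me3. Far windows were 2.23 times (1.33 to 3.52) and 2.34 times (2.1 to 2.60) as dense. Of the far peaks, 3 of the 19 of H3K27me3 and 17 of the 353 of H4K20me3 set the ends of their windows. These lie there by construction, which raises the far counts, while start windows begin at coordinate 0. Single chromosomes held much of both contrasts. Without chromosome 9 the H3K27me3 counts were 26 and 19, a ratio of 1.37 (0.729 to 2.62), and start windows were 3.23 times (2.09 to 4.79) as dense as the interiors. Without chromosomes 8 and 9 the H3K27me3 ratio of start to far turned to 0.737 (0.342 to 1.55), and start windows were 1.87 times (1.02 to 3.17) as dense as the interiors. Without chromosome 19 the H4K20me3 counts were 163 and 174, a ratio of 0.937 (0.752 to 1.17), and without chromosomes 11 and 19 the ratio turned to 1.68 (1.30 to 2.18). In that last case chromosome 9 held 81 of the 163 start peaks and 2 of the 97 far peaks. Chromosomes 9, 11 and 19 were not left out together. With only chromosome 9 left out, the H4K20me3 ratio of start to far was 0.236 (0.184 to 0.301), and start windows had 0.556 times (0.443 to 0.690) the interior density. The far windows without chromosomes 11 and 19 had 0.974 times (0.789 to 1.19) the interior density of H4K20me3. Counted as regions joined within 50 kb, H4K20me3 had 21 in start and 43 in far windows, a ratio of 0.488 (0.275 to 0.841), and 0.571 (0.313 to 1.02) without chromosome 19. At least 1 region at 17 of the far ends is there by the way the windows were drawn.

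Counted by window, H3K27me3 was found at 9 of 20 start windows and 8 of 20 far windows. The background was 18.9% of 1210 windows of 2 Mb laid end to end in the interiors. Of the 8 far windows, 3 (chromosomes 5, 10 and 17) held only the H3K27me3 peak that placed them, so the far count cannot be read against this background. H4K20me3 was found at 11 of 20 start windows (55.0%), near its background of 55.3% of the 1210. It was found at 18 of 20 far windows, but 17 of the 20 far windows were placed by an H4K20me3 peak and 3 by an H3K27me3 peak, so that count is largely fixed by how the windows were drawn. In all 9 start windows and 8 far windows with H3K27me3, the density was above that of the interior of the same chromosome. A single peak was enough for this, since no interior had more than 0.374 H3K27me3 peaks per Mb. For H4K20me3 this was so in 4 of 20 start windows and 9 of 20 far windows. Both ends of a chromosome together were denser than its interior on 13 of the 16 autosomes with H3K27me3 and on 6 of 20 for H4K20me3. On chromosomes 2, 10, 14 and 17 a single H3K27me3 end peak was enough for this. On 10 and 17 it was the peak that placed the far window, so the count of 13 is partly fixed by the rule. No background was computed for these counts.

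Among the 40 windows, 13 held both marks, 4 held H3K27me3 alone, 16 held H4K20me3 alone and 7 held neither. The shares of interior windows of these kinds were not computed, and the far counts are partly fixed by the rule. The 7 without either mark were start windows, since each far window holds the peak that set it. A window without a peak allows up to 3 peaks, or 1.5 per Mb, which is above the H3K27me3 density of the interiors, so an absence in a single window carries little weight. No H3K27me3 peak was listed anywhere on chromosomes 16, 18, 19 and 20. These 4 autosomes held 188 of the 517 H4K20me3 end peaks, 180 of them on chromosome 19, so overlap of the marks could not be seen there.

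Density was highest in the 0.1 Mb next to the end for both marks and lower further in, as the plot of density by distance shows. Within 0.1 Mb of coordinate 0, the 20 autosomes together held 17 H3K27me3 peaks, or 8.5 per Mb (4.95 to 13.6), on 3 chromosomes, and 12 of these peaks were on chromosome 8. From 0.1 to 0.5 Mb the density was 3.62 per Mb, and from 0.5 to 1 Mb it was 2.80, and chromosome 9 held 28 of 29 and 23 of 28 of these peaks. Between 1 and 2 Mb it was 0.200 per Mb (0.0545 to 0.512), an interval that holds the interior density. At the far ends 14 of the 19 H3K27me3 peaks lay within 0.1 Mb of the last peak end, on 7 chromosomes, and the density from 0.1 to 0.5 Mb was 0.250 per Mb (0.0303 to 0.903). H4K20me3 reached 13 per Mb (8.49 to 19) in the first 0.1 Mb from coordinate 0, on 4 chromosomes, and 48.5 per Mb (39.3 to 59.2) in the last 0.1 Mb, where chromosome 19 held 36 of the 97 peaks. Along the start windows the H4K20me3 peaks came from different chromosomes and differed in control. Here 24 of 26 were deep in control, as explained below, in the first 0.1 Mb, 30 of 33 from 0.1 to 0.5 Mb and 48 of 55 from 0.5 to 1 Mb, and chromosome 9 held 29 of the 33 and 51 of the 55. Between 1 and 2 Mb 6 of 50 were, and chromosome 7 held 43 of these 50. In the far windows the highest share of deep H4K20me3 peaks in a bin was 17 of 68, from 0.5 to 1 Mb. Each far end was set by a peak, so the last bin holds at least 1 peak of either list on every chromosome by construction. Between 2 and 5 Mb, H4K20me3 stood at 1.15 per Mb (0.895 to 1.46) from the start and 1.82 (1.49 to 2.19) from the far end, where chromosome 19 held 85 of 109, below its interior mean of 3.78. That mean includes the large internal blocks.

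**Figure D2:**
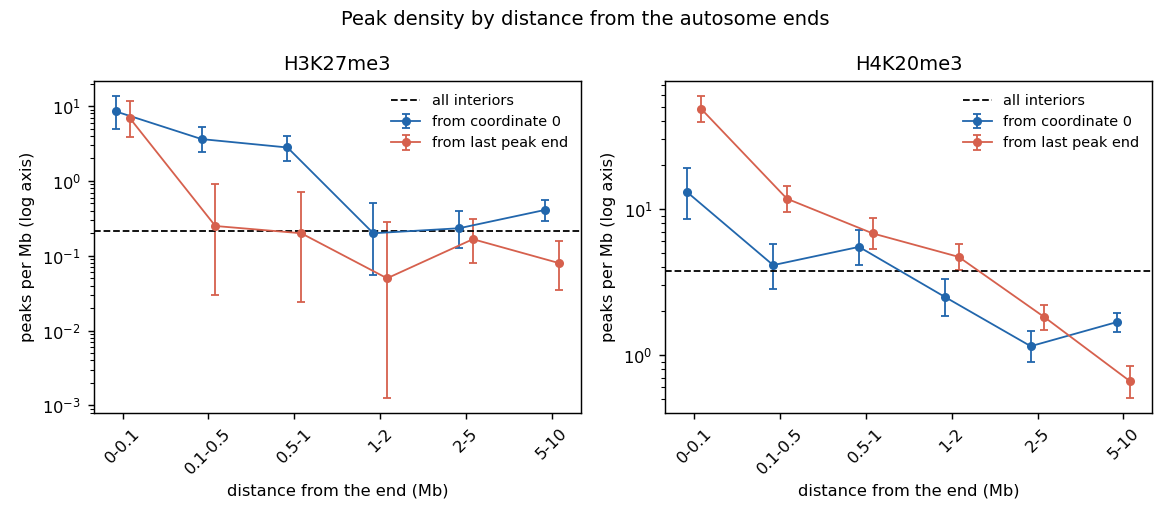
Peaks per Mb (vertical axis, log scale) summed over the 20 autosomes in bins of distance from coordinate 0 or from the last peak end (horizontal axis, Mb); bars are exact 95% Poisson intervals and the dashed line is the mean of the interiors. H3K27me3 falls from 8.5 per Mb in the first 0.1 Mb to 0.200 between 1 and 2 Mb of the start.

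The peak caller set each peak against a control value, called the control pileup here, which was recovered here from its deposited fold and p. Peaks are called deep in control above 2 times the lowest value of the list, that is above 10.4 for H3K27me3 and above 7.00 for H4K20me3. Of the 97 H3K27me3 end peaks, 86 (88.7%, 80.6 to 94.2) were deep in control, against 50.8% of all autosomal H3K27me3 peaks and 43.7% (39.4 to 48.1) in the interiors. Their median control pileup was 43.3, against 6.92 inside. Of the 517 H4K20me3 end peaks, 150 (29.0%, 25.1 to 33.1) were deep, against 14.4% of all autosomal H4K20me3 peaks and 13.6% (12.9 to 14.3) in the interiors. The split by end was wide for this mark, with 108 of 164 (65.9%, 58.1 to 73.1) deep in start windows and 42 of 353 (11.9%, 8.71 to 15.7) in far windows. Deep-control H4K20me3 peaks were thus 2.57 times (1.78 to 3.77) as many in start as in far windows, the direction seen for H3K27me3. Start windows had 5.27 times (4.29 to 6.42) and far windows 2.05 times (1.47 to 2.79) the interior density of such peaks. Chromosome 9 held 76 of the 150, and without it 17.1% (13.6 to 20.9) of the H4K20me3 end peaks were deep, with 32 of 83 (38.6%, 28.1 to 49.9) in start windows. That left 32 deep H4K20me3 peaks in start and 42 in far windows, 1.61 times (1.10 to 2.29) and 2.12 times (1.52 to 2.88) the interior density. With chromosomes 8 and 9 both left out, 19 lay in start windows, 1.03 times (0.617 to 1.61) the interior density. The 42 in far windows were then 2.28 times (1.63 to 3.10) as dense. Without chromosome 19 the deep share of H4K20me3 end peaks was 43.6% (38.3 to 49.1), with 23.0% (17.0 to 30.0) in far windows. Without chromosome 9 the H3K27me3 share was 77.8% (62.9 to 88.8), with a median control pileup of 29.1 at the ends.

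Counted as peaks, the higher density of H3K27me3 was that of deep-control peaks. Among these, 86 lay at the ends and 227 inside, a density ratio of 11.5 (8.90 to 14.9), or 4.91 (3.34 to 7.05) without chromosome 9. With chromosomes 8 and 9 both left out the ratio was 3.55 (2.20 to 5.49). In that case 7 lay in start windows, 2.16 times (0.858 to 4.54) the interior density, and 16 in far windows, 4.94 times (2.77 to 8.23). Among peaks with ordinary control, 11 lay at the ends and 292 inside, a ratio of 1.15 (0.567 to 2.08). By peaks, no difference was detectable in that class. Joined within 50 kb, the same class had 11 regions at the ends and 158 inside, a ratio of 2.12 (1.04 to 3.90). The peaks that set the far ends of chromosomes 5 and 17 are among the 11. For H4K20me3 the ratio was 3.66 (3.07 to 4.34) among deep-control peaks, or 1.87 (1.46 to 2.36) without chromosome 9, and 1.41 (1.26 to 1.56) among ordinary ones. The ordinary H4K20me3 peaks split into 56 in start windows, 0.429 times (0.324 to 0.558) the interior density, and 311 in far windows, 2.38 times (2.12 to 2.67). Chromosome 19 held much of the last group, and without it the ordinary ratio was 1.04 (0.896 to 1.20) over both ends and 1.47 (1.23 to 1.74) in far windows. Without chromosomes 11 and 19 the ordinary H4K20me3 peaks were sparser at the ends, with a ratio of 0.677 (0.557 to 0.814).

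Folds were lower at the ends, where control was deeper. The fold is the caller's own value of signal over control, as deposited by the authors. Its median for H3K27me3 was 1.83 at the ends (quartiles 1.56 to 2.13) and 2.77 inside (1.94 to 2.94). Without chromosome 9 the H3K27me3 medians were 2.03 at the ends and 2.77 inside. Within one range of control the H3K27me3 medians lay within 0.1 of each other where control was deep, as the plot of fold against control shows. At control pileups of 20 to 50 the H3K27me3 medians were 1.93 for 31 end peaks and 1.98 for 83 interior peaks. At 50 to 100 they were 1.72 for 22 and 1.70 for 71, and above 100 they were 1.48 for 23 and 1.54 for 33. For H4K20me3 the median was 3.56 at the ends (2.85 to 4.06) and 3.88 inside (3.41 to 4.44). Without chromosome 9 it was 3.71 at the ends and 3.88 inside. On all autosomes, the H4K20me3 median at ordinary control was 3.81 for 367 end peaks and 4.0 for 7953 interior peaks. At 50 to 100 it was 1.97 for 46 and 2.56 for 109. Low folds could be listed only where control was deep: the lowest at ordinary control was 2.42 for H3K27me3 and 2.44 for H4K20me3. Over all control values widths had medians of 692 bp at the ends and 595 bp inside for H3K27me3, and 285 and 291 bp for H4K20me3. At like control end peaks were narrower in some ranges: H3K27me3 medians at ordinary control were 354 and 564.5 bp, and those of H4K20me3 were 282 and 443 bp at 20 to 50 and 414 and 645 bp at 50 to 100.

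**Figure D3:**
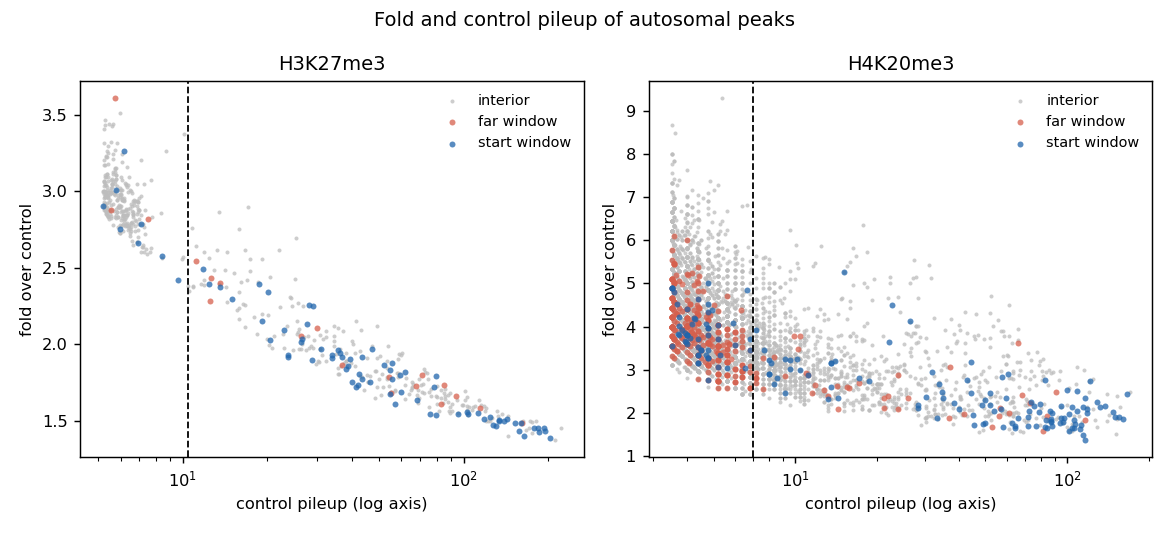
The caller's fold over control (vertical axis) against the solved control pileup (horizontal axis, log scale) for each autosomal peak, coloured by interior, start window or far window; the dashed line is the limit for deep control. End peaks of H3K27me3 lie mostly right of the line (86 of 97), while far-window peaks of H4K20me3 lie mostly left of it (311 of 353).

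Over all control values together, the marks coincided more often at the ends. Of the 97 H3K27me3 end peaks, 51 shared at least 1 bp with an H4K20me3 peak (52.6%, 42.2 to 62.8), against 34.1% of all autosomal H3K27me3 peaks and 30.6% (26.7 to 34.8) in the interiors. Of the 517 H4K20me3 end peaks, 82 (15.9%, 12.8 to 19.3) overlapped H3K27me3, against 2.96% of all autosomal H4K20me3 peaks and 2.24% (1.95 to 2.56) in the interiors. Chromosome 9 supplied 30 of the 51 and 53 of the 82. Without it the shares at the ends were 46.7% for H3K27me3 and 6.68% (4.52 to 9.46) for H4K20me3. Without chromosome 19, which has no H3K27me3 peak, the H4K20me3 share was 24.3% (19.8 to 29.3). Overlap was seen in 9 of the 40 windows, and the share of interior windows with overlap was not computed.

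Overlap rose with control. With all autosomes counted, H3K27me3 end peaks exceeded the interiors in no range of deep control. H4K20me3 end peaks had the higher share in the deep ranges up to 100 and the lower share above 100. Among deep-control H3K27me3 peaks, 50 of 86 at the ends overlapped (58.1%, 47.0 to 68.7), against 156 of 227 inside (68.7%, 62.3 to 74.7), with intervals that overlap. At ordinary control 1 of 11 end peaks and 3 of 292 interior peaks did. Among deep peaks with control of 20 or less, none of 10 end peaks and 14 of 40 interior peaks overlapped. At higher control, 10 of 31 end peaks with control of 20 to 50 overlapped (32.3%, 16.7 to 51.4) against 53 of 83 inside (63.9%, 52.6 to 74.1). At 50 to 100 the counts were 17 of 22 and 56 of 71, and above 100 all 23 and all 33 overlapped. Without chromosome 9, 5 of 12 end peaks and 50 of 80 interior peaks overlapped at control of 20 to 50, and 11 of 12 and 55 of 69 at 50 to 100. Among deep-control H4K20me3 peaks, 82 of 150 at the ends (54.7%, 46.3 to 62.8) overlapped against 206 of 1248 inside (16.5%, 14.5 to 18.7), but 881 of the 1248 had control of 20 or less. In that range 2 of 46 end peaks (4.35%) and 13 of 881 interior peaks (1.48%) overlapped. At 20 to 50 the H4K20me3 shares were 58.1% (39.1 to 75.5) of 31 end peaks and 36.5% (30.3 to 43.1) of 230 interior peaks. At 50 to 100 they were 82.6% (68.6 to 92.2) and 75.2% (66.0 to 83), and above 100 they were 88.9% (70.8 to 97.6) and 96.4% (81.7 to 99.9). Without chromosome 9, 29 of 74 deep H4K20me3 end peaks overlapped (39.2%, 28.0 to 51.2). None of the 367 H4K20me3 end peaks with ordinary control overlapped, and none of the 7953 inside did.

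The start of chromosome 9 was the richest end for H3K27me3 and the richest start for H4K20me3. Its 52 H3K27me3 peaks gave 26 per Mb, against 0.231 in the interior of the same chromosome, and its 81 H4K20me3 peaks gave 40.5 per Mb against 0.893. No interior window of 2 Mb held as many H3K27me3 peaks (at most 26), while 21 of the 1210 held at least 81 H4K20me3 peaks. All but 1 peak of each mark lay in a single block of 394 kb from 373060 to 767369, in which H3K27me3 peaks covered 14.8% and H4K20me3 peaks 10.1%. Median folds in this window were 1.75 for H3K27me3 (range 1.39 to 2.66) and 2.14 for H4K20me3 (1.38 to 4.89). The median control pileups were 55.0 and 64.2, and 51 of 52 and 76 of 81 peaks were deep in control. The widest H3K27me3 end peak lay here, with 5072 bp at 759596 to 764667 (fold 1.45, control pileup 178), as did the next, with 4239 bp at 387655 to 391893 (fold 1.5).

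The block was not uniform. Joined within 15 kb, a distance chosen after seeing the peaks, it fell into 5 stretches. The outer ones, from 373060 to 401026 and from 720769 to 767369, had the deepest control, with H3K27me3 medians of 124 and 159 and H4K20me3 medians of 87.7 and 106. Their H3K27me3 folds were the lowest, with medians of 1.51 and 1.45, and 7 of 8 and 9 of 11 H3K27me3 peaks overlapped H4K20me3. The longest stretch, from 423779 to 529376, held 25 H3K27me3 peaks (median fold 1.84) and 24 H4K20me3 peaks (median fold 2.1), with 11 of the 25 overlapping. The stretch from 550004 to 621997 was mainly H4K20me3, with 19 peaks of median fold 3.22 and median control 9.17 against 4 H3K27me3 peaks. It held the highest H4K20me3 fold of the block, 4.89 at 609506 to 609973. Beyond the block, 1 peak of each mark overlapped near 1.76 Mb, where the H4K20me3 peak at 1762892 to 1763462 had a -log10 q of 51.2 at a control pileup of 122.

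**Figure D4:**
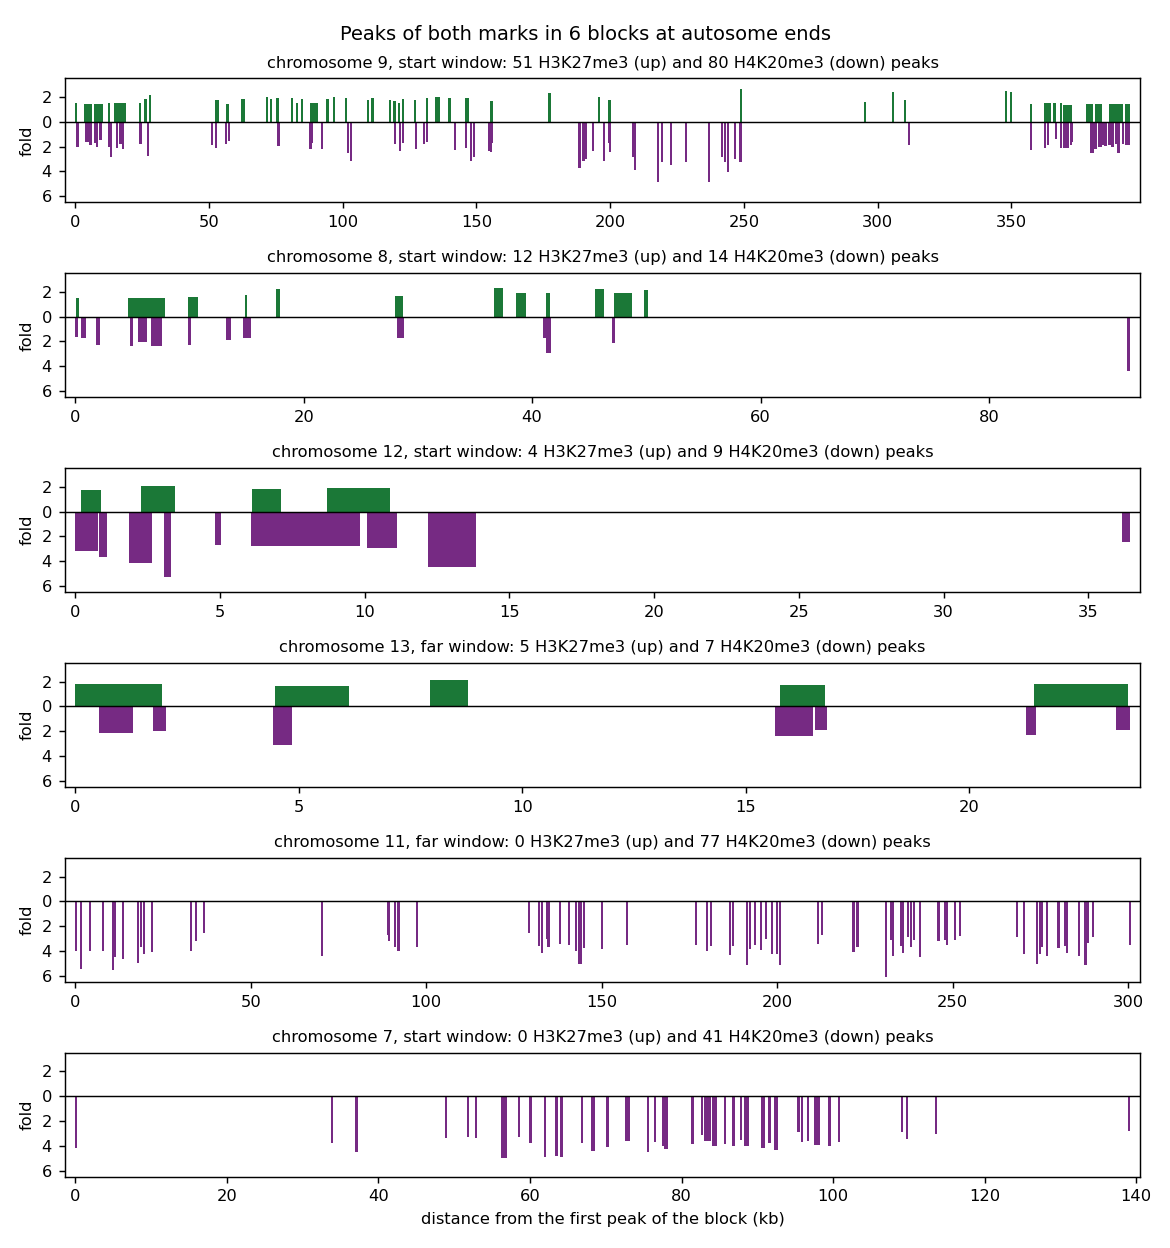
Peaks of H3K27me3 (bars up) and H4K20me3 (bars down) in 6 blocks at autosome ends; bar height is the caller's fold, bar width is the peak width with a minimum drawn width, and the horizontal axis is the distance in kb from the first peak of the block. The blocks on chromosomes 9, 8, 12 and 13 hold both marks, while those at the far end of chromosome 11 (77 peaks) and the start of chromosome 7 (41 peaks) hold H4K20me3 alone.

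The start of chromosome 8 carried both marks from the very first bases. An H4K20me3 peak ran from position 2 to 265 (fold 1.64, control pileup 84.1), and an H3K27me3 peak from 60 to 349 (fold 1.54, control pileup 75.9) overlapped it. In all, 12 H3K27me3 peaks lay between 60 and 50172, with a median fold of 1.90 (range 1.51 to 2.34), and 7 of them overlapped H4K20me3. The window held 14 H4K20me3 peaks with a median fold of 2.08, of which 10 overlapped. All 12 and 13 of the 14 were deep in control. By H4K20me3 number this end was ordinary for its chromosome, at 7 peaks per Mb against 6.18 in the interior, while H3K27me3 stood at 6 per Mb against 0.280.

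The start of chromosome 12 held a compact block of both marks. From 18623 to 29280, all 4 H3K27me3 peaks (median fold 1.83, control 47.6) overlapped H4K20me3. The H4K20me3 peaks there included the widest of all ends, 3786 bp at 24472 to 28257 (fold 2.78, -log10 q 35.6). Beside it lay 1 of 1658 bp at 30619 to 32276, with a fold of 4.51 and no H3K27me3 peak. The highest fold of this end, 5.26, belonged to a peak at control pileup 15.1. The window held 16 H4K20me3 peaks, 8 per Mb against 0.735 in the interior, and 10 of them were deep in control.

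The far end of chromosome 13 had 6 H3K27me3 and 12 H4K20me3 peaks. The last 23.6 kb of the span, from 127530863 to 127554452, held 5 and 7 of these, with median folds of 1.79 and 2.12. Of these, 4 H3K27me3 peaks and all 7 H4K20me3 peaks overlapped the other mark, and all 12 were deep in control. The sixth H3K27me3 peak, at 127190713 to 127191046, was of another kind, with the highest H3K27me3 fold of all ends (3.61), a control pileup of 5.71 and no H4K20me3 overlap. At the far end of chromosome 6 both H3K27me3 peaks overlapped H4K20me3. The H4K20me3 peak at 173690333 to 173691359 had the highest -log10 q of any end peak (56.3, fold 3.63, control pileup 66.2).

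Chromosome 7 had both marks at both ends, with 1 place of overlap. Its start window held 45 H4K20me3 peaks, of which 41 lay in 139 kb from 1217379 to 1356528 with no H3K27me3 peak among them. Their median control pileup was 4.39 and median fold 3.81, and the window stood at 22.5 per Mb against 1.47 in the interior. The far window held 19 H4K20me3 peaks with a median fold of 2.60, and 18 of them were deep in control (median 12.8). It also held 5 H3K27me3 peaks with a median fold of 2.28, all deep in control, and none overlapped H4K20me3. Here H3K27me3 stood at 2.5 per Mb against 0.183 in the interior, and H4K20me3 at 9.5 against 1.47. The 3 H3K27me3 peaks of the start window had folds from 2.09 to 2.58, and 1 of them overlapped.

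The far ends richest in H4K20me3 held peaks mainly at ordinary control, and those of chromosomes 19 and 11 held no H3K27me3 peak. Chromosome 19 held 179 H4K20me3 peaks in its far window, 89.5 per Mb, with a median fold of 3.9 (range 2.57 to 5.77) and a median control pileup of 4.25. Of the 179, 2 were deep. The interior of chromosome 19 is itself dense, at 52.2 per Mb, so this end was 1.71 times as dense as its own interior. The start window of the same chromosome held 1 peak, at 1972633 to 1973177, with a fold of 1.86 and a control pileup of 161. Chromosome 11 held 77 peaks in its far window, all in 300.4 kb from 131966777 to 132267195. That was 38.5 per Mb against 3.87 inside, with a median fold of 3.73 and 2 of 77 deep. It held the highest H4K20me3 fold of all ends, 6.10 at 132197402 to 132197704. Chromosome 6 held 31, of which 28 lay in a pair of blocks of 14 peaks, from 172098278 to 172183151 and from 172240619 to 172307377. The median fold of the window was 3.71, and its highest fold was 6.02 at 172278699 to 172279406. The 2 deep-control peaks among the 31 were those that overlapped the H3K27me3 peaks of this end.

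Among the H3K27me3 end peaks with ordinary control, most stood alone. The highest folds after the one on chromosome 13 were 3.26 on chromosome 4 (1462500 to 1462853), 3.01 on chromosome 1 (46410 to 46831), 2.90 on chromosome 14 (976220 to 976775) and 2.88 at the far end of chromosome 5 (178637875 to 178638228). None of these overlapped H4K20me3. The last of them sets the end of the chromosome 5 span, so its place in the window was fixed by the rule. Deep-control peaks of both marks lay at the end of the span of chromosomes 1 and 2. There were 2 of H3K27me3 and 1 of H4K20me3 on chromosome 1 and 1 of each on chromosome 2. On both chromosomes the H4K20me3 peak sets the end of the span, so its place there was fixed by the rule. On chromosome 2 the H3K27me3 peak at 186388004 to 186388714 (fold 1.58) overlapped the H4K20me3 peak at 186388227 to 186389001 (fold 2.23).

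On chromosome 19, 58 H4K20me3 peaks lay 1 to 2 Mb from the far end and 85 lay 2 to 5 Mb from it. How many clusters of peaks were cut was not counted for the 2 Mb border. The H3K27me3 peaks next to it at the start were at 1763160 on chromosome 9 (inside, fold 1.48) and 2015013 on chromosome 3 (outside, fold 2.82, control pileup 5.43). For H4K20me3 they were at 1972633 on chromosome 19 (inside, fold 1.86) and 2094508 on chromosome 8 (outside, fold 3.81). At the far ends they were at 48982952 on chromosome 19 (inside, fold 4.58) and 171924684 on chromosome 6 (outside, fold 3.56) for H4K20me3. For H3K27me3 they were at 172911418 on chromosome 6 (inside, fold 1.61) and 178153892 on chromosome 3 (outside, fold 2.85).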

How the data were processed

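The deposited peak lists were used as they stand. The submitters' processing notes name MACS2 2.1.0.20140616 and Bowtie 1.1.1; parameters, the control set against each mark and the treatment of reads with several placements are not given in the sources used here. The file names give papAnu2 as the build. The H3K27me3 list has the broad layout and the H4K20me3 list the narrow one, so numbers and folds are not compared between marks. Each list holds the deposited fold over control (a ratio, by the authors), the deposited -log10 p and -log10 q, and a deposited score (10 times the -log10 q without its decimals) that was not used. Numbers of reads were not used here, so depth is known only through the control values. Coordinates are 1-based in the text.

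The span of a chromosome is the largest peak end in either list. The control pileup c was solved from fold = (x + 1) / (c + 1) and a Poisson p, where x is the ChIP pileup. All H4K20me3 x were whole within 0.02, and 5.78% of the H3K27me3 x, so control pileups are approximate for H3K27me3. The solver was tested on simulated peaks with whole x, the window counts on peaks placed in known windows, and the intervals on independent simulated counts. These tests do not cover the H3K27me3 x, most of which were not whole, or intervals for clustered peaks. Intervals of shares are exact binomial (Clopper-Pearson), those of density ratios come from them, and those of densities are exact Poisson. They cover counting error only. A count of 0 was taken to allow up to 3. The list of H4K20me3 has 10000 peaks, the last of which lie on chromosome X, which is listed last. Whether the list was cut at that number, and by which order, was not tested. A cut by position would leave the autosomes whole, while a cut by another order could remove autosomal peaks. The members, windows and lists were chosen with earlier results of these data known. Ends named in the text are the 6 with the most peaks of each mark and the ends with the most overlap; peaks named are those of highest fold, greatest width or smallest distance, and further ones of highest -log10 q, single peaks and the stretches of chromosome 9 were chosen after their values were seen. The total H4 sample has no peak list here and was not analysed. The tools were pandas 2.3.3, scipy 1.17.1, numpy 2.4.6 and matplotlib 3.10.9 under Python 3.11.15.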

Additional observations from a re-analysis of the deposited data

Results flagged for a closer look

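Chromosome X is outside the autosomes compared above, and its far window held 104 H4K20me3 peaks, or 52.0 per Mb against 1.29 in the interior of X, more than a count of 0 allows. They lay between 140929850 and 141053364, with median values of 4.34 for fold and 3.59 for control pileup, and 2 were deep in control. The same window held 1 H3K27me3 peak, which sets the end of the span of X, and the start window of X held no peak of either mark. The last of the 104 is the last peak of the deposited H4K20me3 list, and that list stops at 10000 peaks.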

How the results depend on the processing

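With 1 library per mark, every value is a density ratio or a share with no test, and depth is unknown apart from the control values. No paired analysis was possible because each mark has 1 library. Of 231 alternative values, 173 stayed within the 95% interval of the value reported, 51 moved outside it and 7 turned. Most of the 231 left out 1 autosome at a time, and many of these could hardly change the value. Leaving out chromosome 16, which has no H3K27me3 peak, kept the H3K27me3 ratio of start to far at 4.11. The number that stayed is therefore no measure of robustness. The alternatives without pairs of chromosomes, with 2 choices together, and for overlap with deep control only or on autosomes with both marks were chosen after seeing the data. For those that turned, the cause was not tested.

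The ratio of ends to interiors for H3K27me3 was 10.9 with windows of 1 Mb, 2.83 with 5 Mb, 3.05 at a -log10 q of at least 5 (1 end peak), 1.15 at ordinary control, 2.54 with joined peaks, 2.12 with both of these, 7.55 with far ends from its own list and 9.16 for start ends. It was 2.79 without chromosome 9 and 2.21 without chromosomes 8 and 9. It turned to 0.873 at a fold of at least the median, which left 8 end peaks. For H4K20me3 it was 2.47 with 1 Mb, 1.19 at a fold of at least the median, 1.41 at ordinary control, 1.03 with joined peaks and 1.09 for start ends. It was 1.51, 1.45 and 1.54 without chromosomes 7, 9 and 11, and 1.31 without chromosomes 11 and 19. It turned to 0.892 with 5 Mb, to 0.781 with ordinary joined peaks and to 0.940 with joined peaks and without chromosome 19.

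The ratio of start to far for H3K27me3 was 1.67 at a fold of at least the median, 1.18 with joined peaks, 2.23 with far ends from its own list and 1.37 without chromosome 9, and turned to 0.737 without chromosomes 8 and 9. At a -log10 q of at least 5 it had no value, since no far peak was left. For H4K20me3 it was 0.748 at a -log10 q of at least 5, 0.183 at a fold of at least the median, 0.180 at ordinary control, 0.667 in bases covered, 0.982 on autosomes with both marks and 0.571 with joined peaks and without chromosome 19. It was 0.356, 0.236, 0.594 and 0.937 without chromosomes 7, 9, 11 and 19, and turned to 1.68 without 11 and 19. In that last case chromosome 9 held 81 of the 163 start peaks.

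The share of H3K27me3 end peaks that overlapped was 83.5% within 10 kb and 9.09% at ordinary control, and its order against the interiors turned with deep control only (58.1%). For H4K20me3 it was 21.2% with 1 Mb, 23.6% within 10 kb, 0% at ordinary control, 54.7% at deep control, 24.9% on autosomes with both marks, and 6.68% and 24.3% without chromosomes 9 and 19. The share deep in control was 80.4% for H3K27me3 with a limit of 3 times the lowest, 100% at a -log10 q of at least 5 (1 peak) and 77.8% without chromosome 9. For H4K20me3 it was 38.1% with 1 Mb, 24.2% with the limit of 3 times, 41.9% at a -log10 q of at least 5, and 17.1%, 33.6% and 43.6% without chromosomes 9, 11 and 19.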
